A study of Mus musculus with 7 samples.

Results

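MHC class I presentation genes are described here as a set of 10: the heavy-chain genes H2-K1, H2-D1, H2-Q4, H2-Q7, H2-T22 and H2-T23, the light-chain gene B2m, the peptide transporter genes Tap1 and Tap2, and the regulator gene Nlrc5. They were chosen by name, and all 10 were found among the 55357 genes of the deposited expression table and among the 13798 tested genes, those reaching 1 TPM in 3 or more libraries. TPM is a unit of transcript abundance that corrects for gene length and has a fixed total per library. The libraries were poly(A)-selected RNA-seq of live cells sorted as positive for CD45 and CD8 from subcutaneous MCA205 tumours 14 days after implantation. The MCA205 line is a fibrosarcoma that grows in C57Bl/6 mice. The 4 ENT1KO libraries (replicates 11, 12, 14 and 15) came from Slc29a1-/- recipients, and the 3 WT libraries (replicates 1, 2 and 3) came from C57Bl/6 WT recipients. Every recipient carried the same tumour line, so the gene was missing from the cells of the host. The labels give no sex or age and do not state whether the libraries come from different animals. The p-values therefore describe the spread between these libraries, which may be technical. Slc29a1 encodes ENT1, which moves nucleosides, adenosine among them, into and out of cells, and the comparison asks how its absence in the host bears on CD8 T cells in the tumour.

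MHC class I molecules show peptides from inside a cell to CD8 T cells. A polymorphic heavy chain pairs with beta-2 microglobulin, the product of B2m. The pair then binds peptides that the transporter formed by TAP1 and TAP2 brings from the cytosol into the endoplasmic reticulum. H2-K1 and H2-D1 encode the classical heavy chains of C57BL/6 mice, and the Q and T genes encode class Ib heavy chains, which are less polymorphic. NLRC5 is the class I transactivator, a protein that binds no DNA itself and acts at class I, B2m and TAP promoters through RFX, CREB and NF-Y family factors. Nearly all nucleated cells express class I molecules, lymphocytes at high levels, and interferon raises them.

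The libraries differed in the level of cell type markers. Slc29a1 stood at 13.2 to 17.6 TPM in ENT1KO and 49.7 to 58.9 TPM in WT (limma log2 difference -1.78, SE 0.13, adjusted p = 0.00121). Summed over 14 CD8 T cell genes, among them the receptor chain genes Trac and Trbc2, the level was 9219 to 11332 TPM in ENT1KO and 2891 to 6989.5 TPM in WT, and all 14 genes were called higher in ENT1KO, 13 on normalized counts. The 17 genes of the fibroblast and tumour list, led by Postn and Col3a1, summed to 7.26 to 911 TPM in ENT1KO and 4349.6 to 8252 TPM in WT, and all 16 that were tested were called lower. The 12 macrophage and monocyte genes, led by Lyz2 and Apoe, summed to 112 to 1286 TPM in ENT1KO and 3387 to 5077 TPM in WT, and all 12 were called lower. Of these marker genes Col5a1, Col6a1 and Mgp were listed at 0 in 1 library each and Lum in 2. Among all tested genes 27.5% were called higher and 23.1% lower on TPM, and 21.0% higher on normalized counts. In bulk libraries fewer cells of a type and less RNA per cell cannot be told apart. The summed levels of 2 further lists were lower in ENT1KO in every library, neutrophil genes (1.93 to 12.7 against 72.8 to 85.3 TPM) and endothelial genes (4.31 to 11.3 against 24.7 to 39.8 TPM), and erythroid genes stood at 57.4 to 237 against 694 to 1960.4 TPM. The dendritic cell genes overlapped (36.5 to 76.8 against 39.5 to 48.6 TPM), as did the pair of NK cell genes, and B cell genes summed to at most 7.17 TPM in any library. ENT1KO replicate 14 held the most fibroblast and macrophage transcript of its group, and WT replicate 2 held the most of all 7 libraries and the least CD8 T cell transcript. What part these other cells had in the class I values was not tested.

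All 10 class I presentation genes were higher in every ENT1KO library than in any WT library, and the size of the difference ran from 0.21 for H2-D1 to 1.32 for Nlrc5 on the log2(TPM + 1) scale. In limma over all tested genes, 9 of the 10 rose at a Benjamini-Hochberg adjusted p under 0.05 and none fell. H2-D1 did not pass. Over all tested genes 27.5% were called higher and 23.1% lower, and 30.3% had every ENT1KO library above every WT library. The median difference of the 10 genes was 0.67, and that of all tested genes was 0.15. The scale matters for the smallest differences: in the same test on the authors' normalized counts 6 of the 10 rose, where 21.0% of all tested genes were called higher and 28.0% lower, and the median of all genes was lower by 0.15. H2-K1, H2-T22 and B2m were not called on that scale. The direction turned for H2-D1 with quantile normalization (-0.02) and for 8 of the 10 genes when measured relative to the CD8 T cell genes, as given further on. With quantile normalization 7 rose, where 33.0% of all tested genes were called higher. In the authors' deposited comparison 7 were higher, where 16.5% of its genes were higher and 25.8% lower. The balance of calls over all tested genes also moved, from 3800 higher and 3182 lower on TPM to 2894 higher and 3859 lower on normalized counts.

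**Figure D1:**
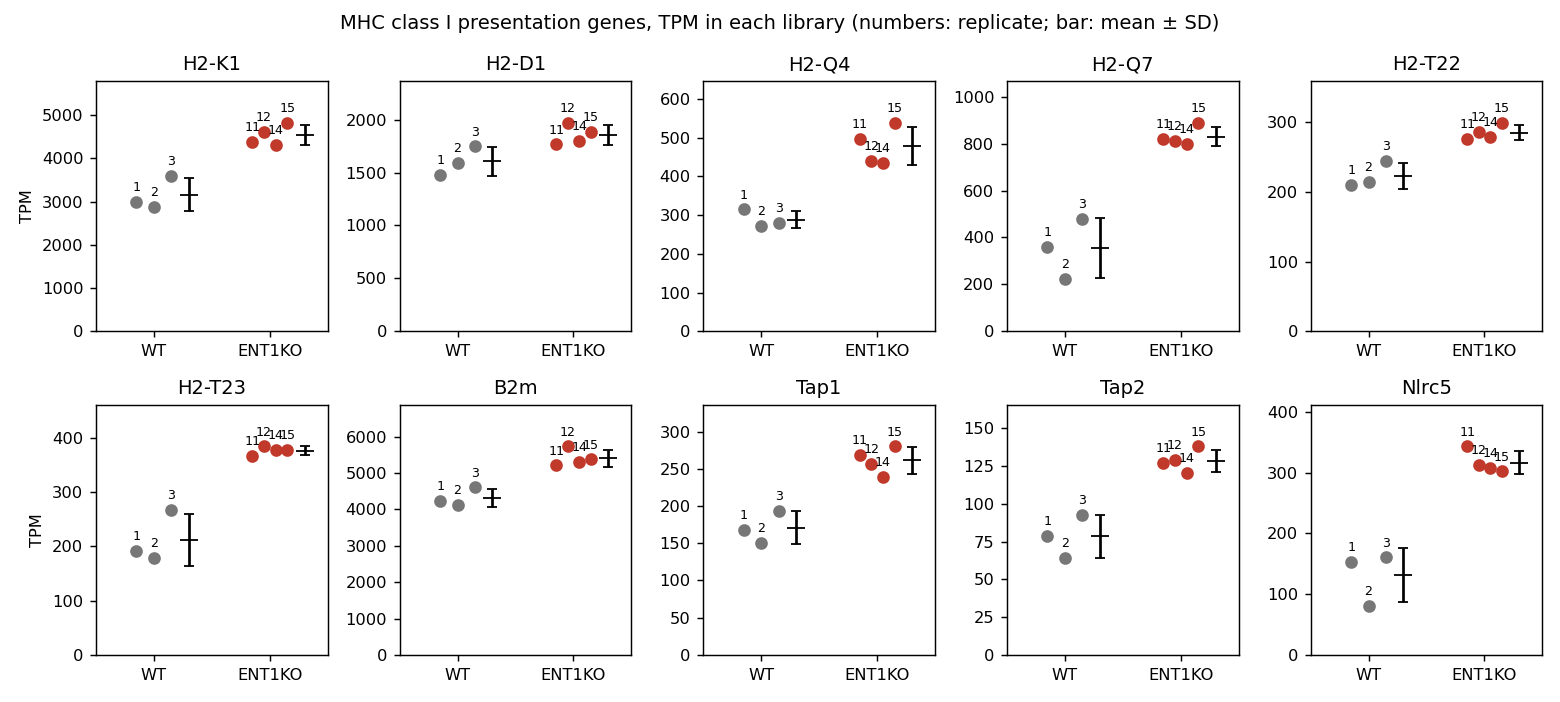
TPM of the 10 class I presentation genes in each library (vertical axis, linear from 0, one panel per gene). Grey points are the 3 WT libraries, red points the 4 ENT1KO libraries, small numbers the replicate, and black bars the mean ± SD; in each panel the red points lie above the grey ones, most narrowly for H2-D1 (1766 against 1747 TPM).

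The classical heavy chains were among the most abundant transcripts of the libraries, and H2-K1 differed more than H2-D1. H2-K1 (chromosome 17, 34214991 to 34219321, GRCm39) ranked 23 of all tested genes by mean level. In ENT1KO replicates 11, 12, 14 and 15 it stood at 4380.3, 4616, 4319 and 4826 TPM. In WT replicates 1, 2 and 3 it stood at 2989, 2885 and 3593 TPM, and values per library are given in this order throughout. The ENT1KO libraries lay close together, and WT replicate 3 was the WT library nearest to them. ENT1KO averaged 4535 ± 232 (SD, n = 4) and WT 3156 ± 382 TPM (SD, n = 3), 1.44-fold, with a log2 difference of 0.53 (SE 0.11, limma adjusted p = 0.00553). On normalized counts the difference was 0.31 (limma adjusted p = 0.0600), and in the authors' deposited table it was 0.31 with an adjusted p of 0.0200.

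H2-D1 (chromosome 17, 35481706 to 35486475) stood at 1766, 1971, 1797 and 1884 TPM in the ENT1KO libraries and at 1475, 1593 and 1747 TPM in the WT libraries. The highest WT library, replicate 3, lay just under the lowest ENT1KO library. Mean levels came to 1854 ± 92.5 in ENT1KO (SD, n = 4) and 1605 ± 137 TPM in WT (SD, n = 3), and the log2 difference of 0.21 had a 95% interval from -0.01 to 0.44 (limma adjusted p = 0.104). It passed in limma without WT replicate 3 (0.27, adjusted p = 0.0333). On normalized counts its difference was 0.06 (limma adjusted p = 0.758), and there the libraries overlapped. H2-K1 transcript was 2.34 to 2.56 times H2-D1 transcript in ENT1KO and 1.81 to 2.06 times in WT, per length.

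Promoters of part of the 10 genes carry elements that class I regulation is known for. They are shown as a description, and their part in the differences was not tested. RefSeq sequences (GRCm38.p6) were at hand for 8 of the 10 genes, not for Tap2 and Nlrc5, and the 250 bases before the first listed start were searched on both strands. In 5 of the 8, TGAC was followed by ATTGG on the same strand after 20 or 21 bases, where a gap of 10 to 30 bases was allowed. This spacing is that of the X2 box, the CREB site, and the Y box, the NF-Y site CCAAT read on the other strand. The same arrangement was found in 1.66% of 32544 promoter windows of the same length. The stretch with this pair is printed 5′ to 3′ for each of the 5 genes, with TGAC or TGACG and ATTGG in capitals. For the 4 heavy chains the capitals before them mark a match to GGGGATTNCC, a form of the NF-kB site, and then GTTTC followed by ACTTC, the reverse of an interferon element searched as GAANNGAAAC.
H2-K1: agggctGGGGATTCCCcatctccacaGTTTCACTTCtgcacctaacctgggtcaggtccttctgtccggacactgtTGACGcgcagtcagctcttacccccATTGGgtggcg
H2-D1: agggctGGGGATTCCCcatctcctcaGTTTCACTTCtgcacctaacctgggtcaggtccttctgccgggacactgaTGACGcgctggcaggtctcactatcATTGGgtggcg
H2-Q4: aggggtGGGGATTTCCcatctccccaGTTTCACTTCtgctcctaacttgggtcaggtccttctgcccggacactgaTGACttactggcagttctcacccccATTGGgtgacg
H2-Q7: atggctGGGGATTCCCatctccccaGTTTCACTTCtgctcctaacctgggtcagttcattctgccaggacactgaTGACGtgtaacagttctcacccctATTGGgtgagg
B2m: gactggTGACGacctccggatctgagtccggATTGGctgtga

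These stretches lie at chr17:34000353-34000464 on the minus strand for H2-K1, and on the plus strand at chr17:35262917-35263028 for H2-D1, chr17:35379437-35379548 for H2-Q4, chr17:35439016-35439125 for H2-Q7 and chr2:122147603-122147644 for B2m. The TGACG of H2-Q4 is the lower-case one after its ATTGG, and no 2 matches overlap. The 4 heavy-chain stretches come from duplicated genes and are not independent of each other. The interferon element was found in these 4 genes and in 1.46% of all windows, and the NF-kB form in the same 4 and in 0.243% of all windows. TGACG alone was present in 7 of the 8 promoters and in 17.8% of all windows, and CCAAT alone in all 8 and in 33.8%. H2-T22, H2-T23 and Tap1 had no such pair in the window, and H2-T23 had no TGACG. H2-K1 and H2-D1, whose printed stretches hold the same marked elements, had log2 differences of 0.53 and 0.21, and H2-D1 was not called. The part of the elements in these values was not tested. A match is a description of the letters and does not show that a factor binds.

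**Figure D2:**
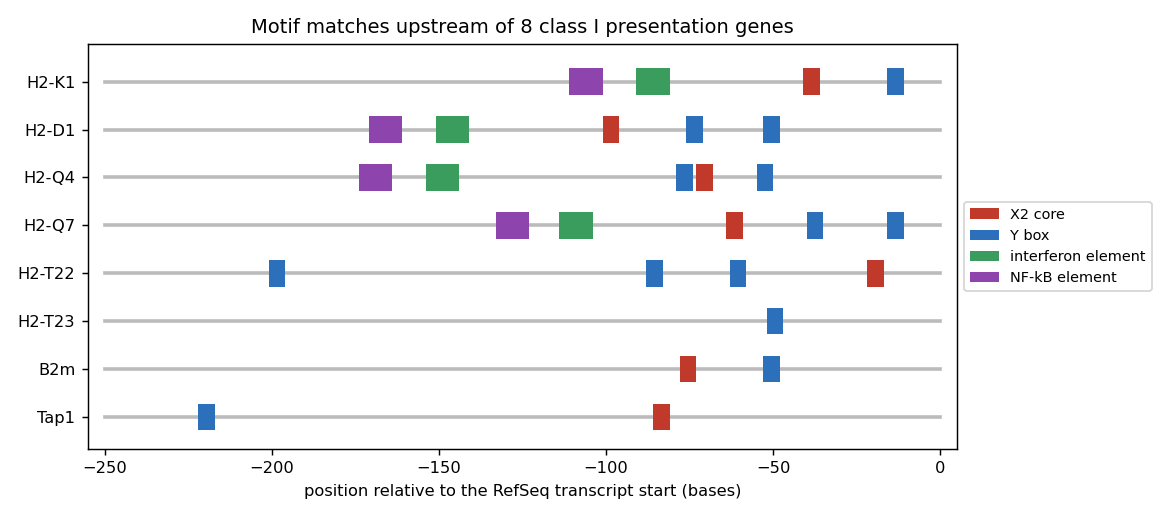
Positions of 4 motifs (coloured boxes, both strands) in the 250 bases before the RefSeq start of 8 class I presentation genes (horizontal axis, bases from the start; grey line, the window searched). H2-K1, H2-D1, H2-Q4 and H2-Q7 have NF-kB and interferon elements in the same order, farther from the start than the X2 core, and H2-T22, H2-T23, B2m and Tap1 have neither of the first pair.

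Among the class Ib heavy chains of the set H2-Q7 differed most and H2-T22 least. H2-Q7 (chromosome 17, 35658131 to 35662749), which encodes a Qa-2 antigen, stood at 819.6, 811, 797 and 889 TPM in the ENT1KO libraries and at 358, 223 and 479.9 TPM in the WT libraries. All ENT1KO libraries lay near each other, while the WT libraries spread over 2.15-fold with replicate 2 lowest. ENT1KO averaged 829 ± 41.0 (SD, n = 4) and WT 353 ± 129 TPM (SD, n = 3), 2.35-fold, with a log2 difference of 1.30 (SE 0.23, limma adjusted p = 0.00332). Leaving out 1 library moved it between 1.0 (without WT replicate 2) and 1.55 (without WT replicate 3), and it was called in all 7 such fits.

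H2-Q7 shares sequence with other genes, and its level is uncertain where reads were shared among them. Of the 50-base words of its longest coding transcript in GENCODE M21, 34.9% occur in transcripts of other genes, H2-Q6 first. Its normalized count averaged 360.5, only 0.0302 of the count per TPM and kilobase of the median tested gene. On that measure H2-K1 was at 0.733, H2-T22 at 0.914 and H2-Q4 at 1.33. H2-Q6, a neighbouring Qa-2 gene, was at 0.0266. The deposited TPM and the deposited counts therefore hold very different amounts of signal for both genes. The part of shared reads in this was not tested. The direction was the same in both tables: the H2-Q7 counts were 458 to 479 in ENT1KO and 148 to 308 in WT (limma log2 difference 1.15, adjusted p = 0.00714).

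H2-Q4 (chromosome 17, 35598593 to 35604266), the gene of Qb-1, stood at 497, 439.5, 436 and 539 TPM in the ENT1KO libraries and at 315, 272 and 279 TPM in the WT libraries. Here WT replicate 1, not 3, was the highest WT library. Mean levels came to 478 ± 49.1 in ENT1KO (SD, n = 4) and 289 ± 22.7 TPM in WT (SD, n = 3), 1.66-fold, with a log2 difference of 0.72 (SE 0.11, limma adjusted p = 0.00227). Other genes hold 24.3% of its 50-base words, H2-Q6 first.

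H2-T23 (chromosome 17, 36340665 to 36343747) encodes Qa-1, which presents leader peptides of other class I chains to CD94/NKG2 receptors. It stood at 366, 384, 378 and 378 TPM in the ENT1KO libraries, the narrowest spread of the 10 genes, and at 191, 179 and 267 TPM in the WT libraries. Again WT replicate 3 was nearest to ENT1KO. ENT1KO averaged 376 ± 7.57 (SD, n = 4) and WT 212 ± 47.8 TPM (SD, n = 3), 1.77-fold, with a log2 difference of 0.85 (SE 0.14, limma adjusted p = 0.00286). Other genes hold 28.8% of its 50-base words, H2-T-ps first.

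H2-T22 (chromosome 17, 36348020 to 36353639), whose product is a ligand of gamma-delta T cell receptors, stood at 276, 286, 279.5 and 299.6 TPM in the ENT1KO libraries and at 210.1, 215 and 245 TPM in the WT libraries. The groups were separate by a narrow margin. Mean levels came to 285 ± 10.4 in ENT1KO (SD, n = 4) and 223 ± 18.7 TPM in WT (SD, n = 3), 1.28-fold, with a log2 difference of 0.36 (SE 0.10, limma adjusted p = 0.0170). It lost its call without WT replicate 1 (0.31, limma adjusted p = 0.0588), on normalized counts (0.24, limma adjusted p = 0.0741) and with quantile normalization (0.22, limma adjusted p = 0.0778). The authors' deposited table gives it 0.23 with an adjusted p of 0.0744. Of its 50-base words 44.7% occur in other genes, chiefly H2-T10, so its level can hold reads of that gene.

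B2m (chromosome 2, 121978167 to 121983564) was the most abundant of the 10 and ranked 15 of all tested genes. It stood at 5209.9, 5732, 5312 and 5374 TPM in the ENT1KO libraries and at 4240.1, 4122 and 4603 TPM in the WT libraries. The separation was clear but small against the level. ENT1KO averaged 5407 ± 227 (SD, n = 4) and WT 4322 ± 251 TPM (SD, n = 3), 1.25-fold, with a log2 difference of 0.32 (SE 0.09, limma adjusted p = 0.0181). The call was lost on leaving out ENT1KO replicate 12, WT replicate 1 or WT replicate 2 (limma adjusted p = 0.0541, 0.0576 and 0.0613) and on normalized counts (0.17, limma adjusted p = 0.224). None of its 50-base words occur in another gene.

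Both peptide transporter subunits rose, by like amounts. Tap1 (chromosome 17, 34406527 to 34416199) stood at 269, 257, 239 and 280.1 TPM in the ENT1KO libraries and at 168, 150.5 and 194 TPM in the WT libraries. Tap2 (chromosome 17, 34422501 to 34435295) stood at 127, 129, 120.3 and 138 TPM in the ENT1KO libraries and at 78.6, 64.1 and 92.8 TPM in the WT libraries. In both genes ENT1KO replicate 14 was the lowest and replicate 15 the highest of the ENT1KO libraries, and WT replicate 2 the lowest of all. Tap1 averaged 261 ± 17.7 (SD, n = 4) against 171 ± 22 TPM (SD, n = 3), a log2 difference of 0.61 (SE 0.12, limma adjusted p = 0.00427). Tap2 averaged 129 ± 7.44 (SD, n = 4) against 78.5 ± 14.4 TPM (SD, n = 3), a log2 difference of 0.72 (SE 0.13, limma adjusted p = 0.00389). Tap1 transcript was 1.98 to 2.11 times Tap2 transcript in ENT1KO and 2.09 to 2.35 times in WT.

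Nlrc5 (chromosome 8, 95160984 to 95253900), the class I transactivator gene, had the largest difference of the 10 on TPM, close to that of H2-Q7 and within its error. With array weights the order turned (1.16 for Nlrc5 and 1.22 for H2-Q7), as it did without WT replicate 3. It stood at 343, 313, 308 and 302 TPM in the ENT1KO libraries and at 153, 80.8 and 160.4 TPM in the WT libraries. WT replicate 2 lay far under the other WT libraries, and no WT library came near the ENT1KO range. Mean levels came to 316 ± 18.0 in ENT1KO (SD, n = 4) and 131 ± 43.9 TPM in WT (SD, n = 3), 2.41-fold, with a log2 difference of 1.32 (SE 0.23, limma adjusted p = 0.00294). The authors' deposited table gives it a log2 fold change of 1.15 (adjusted p = 1.49e-07). Without WT replicate 2 the difference was 1.01 (limma adjusted p = 0.00446).

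Among the WT libraries most of the 10 genes had the same order at the ends. In WT, 8 of the 10 were lowest in replicate 2 and 9 of the 10 highest in replicate 3. In the same libraries the CD8 T cell genes summed to 4515, 2891 and 6989.5 TPM in the order of WT replicates 1 to 3, so replicate 2 was the lowest and replicate 3 the highest there as well. The coefficient of variation in WT was 36.4% for H2-Q7, 33.5% for Nlrc5 and 22.5% for H2-T23, and 5.81% for B2m and 8.53% for H2-D1. The 3 genes that differed most between genotypes were thus the 3 that varied most among the WT libraries. In ENT1KO the coefficient of variation was 2.01% to 10.3%, and 6 of the 10 genes were highest in replicate 15, the library with the least fibroblast and macrophage transcript. There the order was less shared: 5 genes were lowest in replicate 14 and 4 in replicate 11, and Nlrc5 was highest in replicate 11 and lowest in replicate 15. What part library composition had in these orders was not tested.

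Measured against B2m in the same library, Nlrc5, H2-Q7, H2-T23, Tap2, Tap1 and H2-K1 were higher in ENT1KO. A two-sided exact permutation test for each of the 9 other genes, adjusted by Benjamini-Hochberg over the 9, gave an adjusted p of 0.0429 for these 6, whose raw p of 0.0286 is the smallest that 4 against 3 allows. The log2 difference relative to B2m was 0.97 for H2-Q7, 0.52 for H2-T23, 0.40 for Tap2, 0.29 for Tap1 and 0.20 for H2-K1. Nlrc5 stood furthest apart, at -4.09 ± 0.12 (SD, n = 4) relative to B2m in ENT1KO and -5.09 ± 0.49 (SD, n = 3) in WT. Among all tested genes 8.33% were higher relative to B2m at that raw p and 31.8% lower. H2-Q4 did not pass at 0.40 (exact permutation adjusted p = 0.0643), although its libraries did not overlap. H2-D1 was at -0.11 (exact permutation adjusted p = 0.0643) and H2-T22 at 0.03 (exact permutation adjusted p = 0.429). On normalized counts 7 of the 9 were higher, but the share of all tested genes was not computed on that scale. That count therefore has no background to be read against.

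The make-up of the heavy-chain transcripts differed with these unequal changes. H2-K1 held 53.9% to 54.7% of the summed TPM of the 6 heavy chains in ENT1KO and 53.8% to 54.3% in WT. H2-D1 held 21.4% to 23.2% in ENT1KO and 26.4% to 29.7% in WT, so every ENT1KO library was under every WT library. H2-Q7 held 9.53% to 10.1% in ENT1KO and 4.15% to 7.26% in WT, and H2-T23 4.29% to 4.72% against 3.33% to 4.04%, in both cases with ENT1KO above WT. H2-T22 held 3.36% to 3.49% in ENT1KO and 3.70% to 4.00% in WT, with ENT1KO under WT. The H2-Q4 shares overlapped (5.17% to 6.13% against 4.23% to 5.68%). The 6 heavy chains together made 1.48 to 1.64 times the B2m level in ENT1KO and 1.30 to 1.44 times in WT. These shares and the ratio to B2m are descriptions of TPM without a test. H2-Q7 is part of the sum, so the limit on its level given above bears on all of them. The even H2-K1 share is among these.

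**Figure D3:**
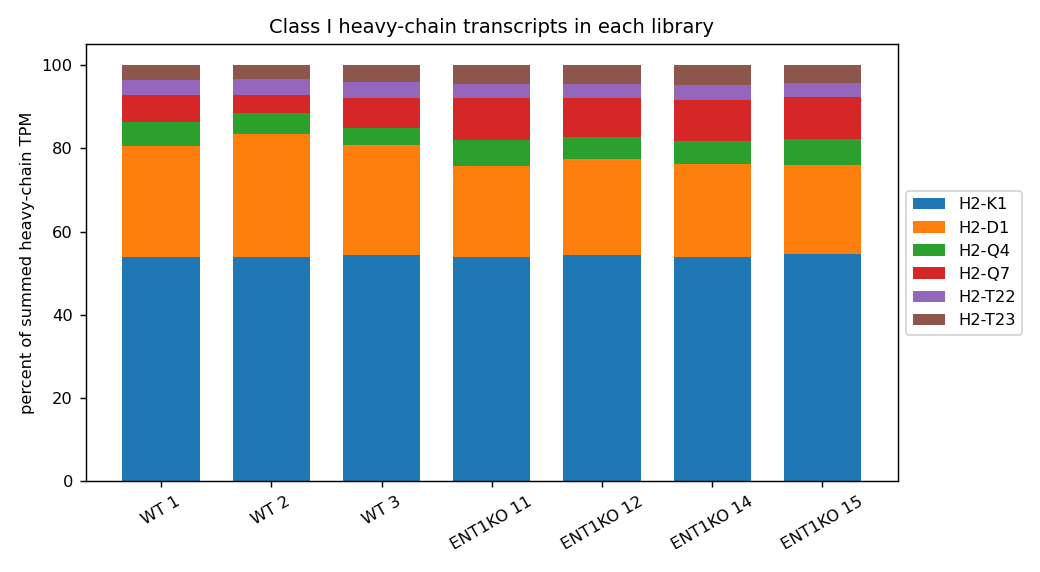
Share of each of 6 class I heavy chains in their summed TPM (vertical axis, percent; stacked bars, one bar per library). H2-K1 takes about the same share in all 7 bars, between 53.8% and 54.7%. H2-D1 takes 21.4% to 23.2% in ENT1KO and 26.4% to 29.7% in WT. Every share depends, through the sum, on the uncertain level of H2-Q7.

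Set against the CD8 T cell genes of the same library, most of the class I presentation genes had a lower mean in ENT1KO, and none passed the test in either direction. The 14 CD8 T cell genes had a median log2 difference of 1.14, against 0.67 for the class I set. Relative to their mean log2 level in each library, 8 of the 10 class I genes had a negative difference, and Nlrc5 (0.17) and H2-Q7 (0.14) a positive one. H2-D1 was at -0.95, B2m at -0.84, H2-T22 at -0.80 and H2-K1 at -0.63, each without overlap between the groups and each with a raw exact permutation p of 0.0286 and an adjusted p of 0.0714 over the 10 tests. Over all tested genes 63.3% were lower at that raw p and 0.225% higher. The other 4, Tap1 (-0.55), Tap2 (-0.44), H2-Q4 (-0.44) and H2-T23 (-0.31), overlapped between the groups. For Nlrc5 the level relative to the CD8 T cell genes was -0.87 ± 0.12 (SD, n = 4) in ENT1KO and -1.03 ± 0.28 (SD, n = 3) in WT (exact permutation p = 0.371), and for B2m it was 3.23 ± 0.08 and 4.06 ± 0.57. A limma fit on this scale called 4 of the 10 genes lower and none higher, where 64.5% of all tested genes were called lower and 0.181% higher, but all genes then share the spread of the CD8 T cell list and the p-values are too small.

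**Figure D4:**
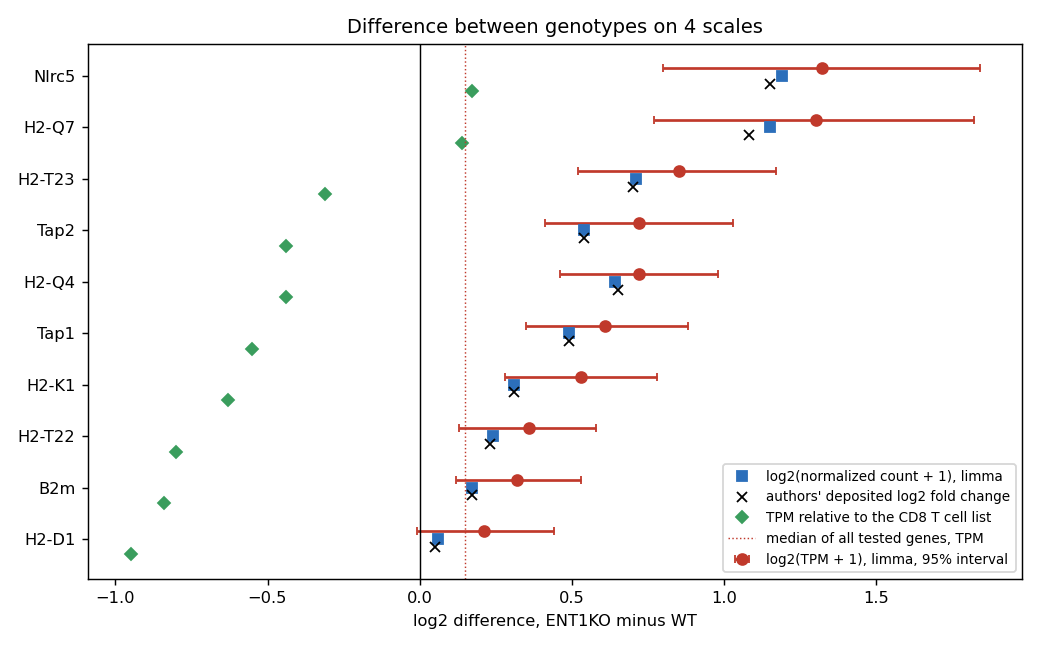
Difference between ENT1KO and WT (horizontal axis, log2) for the 10 genes on 4 scales. Red circles are log2(TPM + 1) with the 95% limma interval, blue squares log2(normalized count + 1), crosses the authors' deposited log2 fold change and green diamonds TPM relative to the CD8 T cell list; the red, blue and black marks lie above 0 for all 10 genes, and the green ones only for Nlrc5 (0.17) and H2-Q7 (0.14).

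Most of the other class I genes that were tested rose too. Of 15 other class I and class I-like genes, 9 were tested, 6 rose, 2 fell and 1 was not called. Over all tested genes 27.5% were called higher and 23.1% lower. H2-Q6 rose from 208 ± 67.5 to 491 ± 37.5 TPM (log2 difference 1.29, limma adjusted p = 0.00276), H2-T10 from 27.0 ± 4.70 to 49.2 ± 4.88 TPM, and H2-M3, which presents formylated peptides, from 40.8 ± 3.02 to 52.2 ± 2.18 TPM. On normalized counts H2-M3 was called (0.26, limma adjusted p = 0.0432), but not with quantile normalization (0.22, limma adjusted p = 0.0740). The authors' deposited table gives H2-M3 0.26 with an adjusted p of 0.0608. Cd1d1, a lipid-presenting gene outside the H2 complex, also rose, from 8.37 ± 2.78 to 17.4 ± 2.57 TPM. Fcgrt, the neonatal Fc receptor gene, fell from 31.9 ± 5.20 to 13.6 ± 3.09 TPM and Hfe, a regulator of iron uptake, from 14.3 ± 1.19 to 1.71 ± 1.60 TPM. Relative to the CD8 T cell list, 2 of the 9 had a positive difference.

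Peptide processing and loading genes did not move one way. Of 15 genes 7 rose and 3 fell, with a median of 0.19, close to that of all tested genes. On normalized counts 4 rose and 4 fell. The shares over all tested genes were 27.5% higher and 23.1% lower on TPM, and 21.0% and 28.0% on normalized counts. The immunoproteasome subunit gene Psmb9 rose from 134 ± 15.6 to 194 ± 9.72 TPM (log2 difference 0.53, limma adjusted p = 0.00532), and Tapbpl, the gene of the peptide editor TAPBPR, from 43.9 ± 9.78 to 73.1 ± 3.25 TPM. Psmb8 (463 ± 56.4 and 603 ± 60.5 TPM) and the proteasome activator gene Psme2 (491 ± 42.1 and 628 ± 59.7 TPM) were called on TPM and not on normalized counts (limma adjusted p = 0.141 and 0.225) or with quantile normalization (0.139 and 0.188). Each also lost its call in 5 of the 7 fits without 1 library, with limma adjusted p up to 0.101 for Psmb8 and 0.103 for Psme2. Lnpep, an aminopeptidase of endosomal compartments, rose from 33.9 ± 5.97 to 67.0 ± 15.8 TPM. The chaperone genes Calr, of the loading complex, and Hspa5, of the endoplasmic reticulum at large, fell, from 783 ± 76.0 to 564 ± 85.9 TPM and from 871 ± 94.8 to 638 ± 57.6 TPM. Calr lost its call without ENT1KO replicate 11 or 12 or WT replicate 2 (limma adjusted p = 0.0545, 0.0504 and 0.0680). None of the 15 had a positive difference relative to the CD8 T cell list.

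Genes of NLRC5 partners and interferon signalling were mostly higher. Among the 18 genes 14 rose and 2 fell; their median was 0.60, and on normalized counts 11 rose and 2 fell, beside the 27.5% higher and 23.1% lower on TPM and the 21.0% and 28.0% on normalized counts over all tested genes. Irf9, a subunit of the factor that type I interferon switches on, rose from 41.5 ± 9.10 to 77.9 ± 11.1 TPM (log2 difference 0.90, limma adjusted p = 0.00358). Ifng, the interferon gamma gene itself, rose from 105 ± 36.1 to 213 ± 51.4 TPM. Ifngr1, the ligand-binding chain of the interferon gamma receptor, rose from 480.4 ± 188 to 1025 ± 84.5 TPM, Irf1 from 182 ± 28.9 to 276 ± 33.1 TPM, and the kinase genes Jak1 and Jak2 by 0.98 and 0.76 on the log2 scale. The genes that fell were Ifngr2, the partner chain of Ifngr1 (43.9 ± 9.76 to 17.9 ± 11.2 TPM, log2 difference -1.42), and Nfya, a Y box factor gene (37.4 ± 0.723 to 28.0 ± 4.10 TPM, -0.42). Creb1, the gene of an X2 box factor, rose from 24.3 ± 3.90 to 41.6 ± 2.46 TPM. Relative to the CD8 T cell list 1 of the 18 had a positive difference.

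Class II presentation genes went the other way. In this list of 10 the median was -1.61, and 8 fell while 1, H2-Oa, rose, where 23.1% of all tested genes were called lower and 27.5% higher. Cd74, the invariant chain gene, fell from 954 ± 232 to 253 ± 139 TPM (log2 difference -2.06, limma adjusted p = 0.00682), H2-Aa from 460.1 ± 114 to 133 ± 72.6 TPM, H2-Ab1 from 372 ± 97.1 to 105 ± 52.1 TPM and H2-Eb1 from 478 ± 136 to 137 ± 73.3 TPM. The peptide-loading genes H2-DMa and H2-DMb2 had log2 differences of -1.14 and -1.30, both called lower. In mice class II is largely a property of antigen-presenting cells, and the macrophage list fell in the same libraries by a median of 3.14 on the log2 scale. Of the 6 tested dendritic cell genes 0 were called on TPM, with a median of -0.19. On normalized counts 1 of them was called lower, where 28.0% of all tested genes were, and the median was -0.40. The 1 tested B cell gene, Cd79b, rose by 0.85. The part of these cell types in the class II values was not tested.

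**Figure D5:**
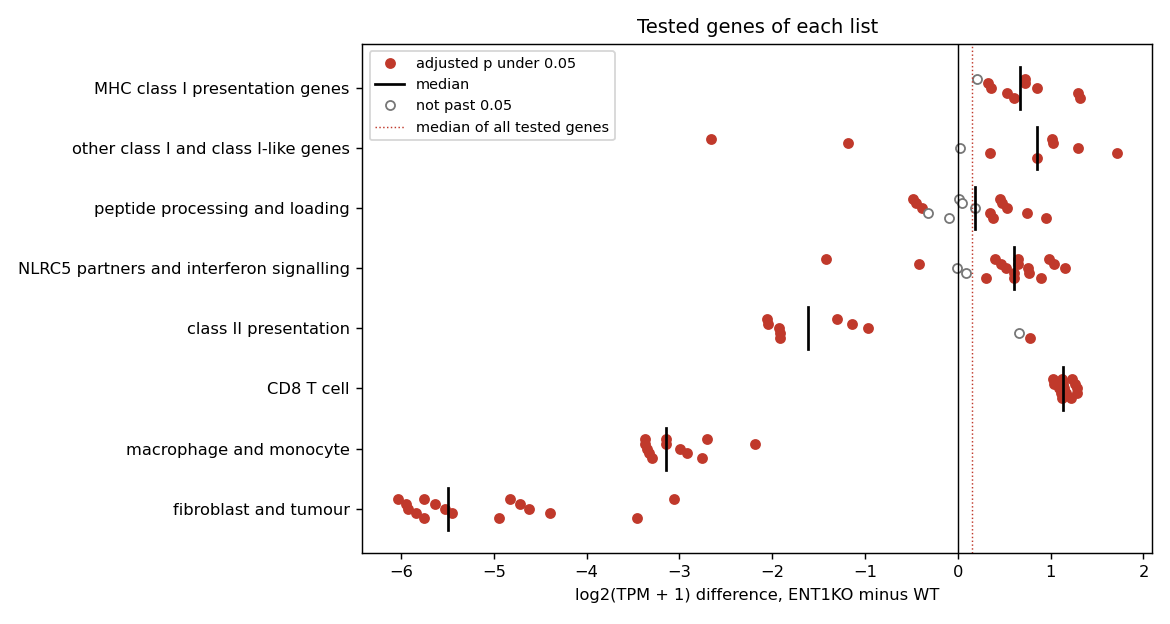
Difference between ENT1KO and WT (horizontal axis, log2(TPM + 1)) for every tested gene of 8 lists (rows). Filled red points passed a limma adjusted p of 0.05, open points did not, black bars are list medians and the dotted line is the median of all tested genes; the class I set has a median of 0.67, the CD8 T cell list 1.14 and the class II list -1.61.

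The genes most like H2-K1 and Nlrc5 across the 7 libraries were of varied kinds. By Pearson's r of log2(TPM + 1) over 7 libraries among 9465 genes with a mean of at least 5 TPM, the 5 nearest to H2-K1 were Grk2, Lonp2, Ifit1bl1, Idnk and Acaa2, with r from 0.994 to 0.995. Ifit1bl1, of the interferon-induced Ifit family, differed by 1.77 (62.7 ± 6.99 against 18.6 ± 8.15 TPM), and Lonp2, a peroxisomal protease gene, by 0.48. The 5 nearest to Nlrc5 were Carmil2, Gimap8, Phkg2, Ptprc and Skiv2l, with r from 0.998 to 0.999. Ptprc, the gene of CD45, by which the cells were sorted, stood at 1097 ± 101 TPM in ENT1KO and 465 ± 157 TPM in WT, and Gimap8, of a GTPase family of lymphocytes, at 161 ± 13.5 and 54.3 ± 20.8 TPM. The 7 libraries fall into separate groups by genotype, and a high r of this kind reflects that split as well as any likeness within a group.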

How the data were processed

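GRCm39 is the build in the submitters' processing notes, which list, with no roles, RSEM, DESeq, DESeq2 1.30.1, STAR 2.7.1a and Trimmomatic (0.35 and 0.38). An annotation release was not given in the sources used here. Per the file headers the authors deposited TPM per gene, and each deposited TPM column has the same total and keeps no depth. A second table holds a signal deposited by the authors, taken here as gene read counts divided by 1 size factor per library. Its headers do not state this. Every value there was a whole multiple of its column's smallest value (100% within 0.01). In steps of that size the libraries sum to 18624318 to 19660792. In WT replicates 1 and 3 this step lies too near 1 to prove whole reads, so no count test was run. That table also holds log2 fold changes and standard errors, a test statistic (a score, unused) and p-values, all deposited as the authors computed them.

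Genes reaching 1 TPM in 3 or more libraries were tested with limma-trend and robust empirical Bayes on log2(TPM + 1), genotype as the only term, Benjamini-Hochberg over all tested genes (limma 3.58.1, R 4.3.3), a scale that understates the change of low genes. Ratios within a library were compared by exact two-sided permutation of the labels (35 arrangements). The fit was tested on simulated data. Alternatives were pseudocounts, filters, quantile normalization, array weights, normalized counts, scaling to the CD8 T cell list and leaving out each library. The members and lists were chosen with earlier results of these data known. Named besides the 10 genes are Slc29a1, in each pathway list the 4 most abundant tested genes and the 3 with the smallest p, the 2 most abundant genes of cell type lists, and the 5 genes most like H2-K1 and Nlrc5, without receptor segments, unnamed models and pseudogenes. 1 gene of the interferon list is not reported here. Word sharing used GENCODE M21 transcripts. Coordinates of genes are those of the deposited table (GRCm39), those of promoters are GRCm38.p6, and neither was converted. Python 3.11.15 and matplotlib 3.10.9 served for the rest.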

Additional observations from a re-analysis of the deposited data

Results flagged for a closer look

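The highest or lowest of the 4 ENT1KO libraries was tested for standing apart, by its gap to the next library as a share of the whole range, in 68 sets of values, and 2 passed Dixon's critical value for 4 samples. Chance flags about 1 in 20 such sets. For Calr the share was 0.850, with ENT1KO replicate 14 at 691 TPM and the others at 503 to 532 TPM. For the summed endothelial genes it was 0.853, with ENT1KO replicate 14 at 11.3 TPM and the others at 4.31 to 5.34 TPM. None of the 10 class I presentation genes was flagged in this way.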

How the results depend on the processing

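On TPM, 9 of the 10 class I presentation genes rose; with pseudocounts of 0.1 and 5 and with both other filters the count was 9, with array weights 10, with quantile normalization 7, in the authors' deposited comparison 7, on normalized counts 6, and without 1 library 7 to 10. The count over all tested genes, both directions together, was 6982 and, without 1 library, 4840 (WT replicate 2) to 6853 (WT replicate 3). It was 6877 and 6992 with pseudocounts of 0.1 and 5, and 7478 with array weights. It was 6963 of 26819 genes above 0 in 1 library, and 5645 of 10609 genes reaching 5 TPM in 3 libraries. For these alternative fits the totals are not split by direction here. Their member counts therefore have no share called higher to be read against. Relative to the CD8 T cell list 0 of the 10 were called higher and 4 lower, and over all tested genes 25 were higher and 8894 lower. On that scale, where the median of all genes shifted by -1.16, these log2 differences changed sign: H2-K1 -0.63, H2-D1 -0.95, H2-Q4 -0.44, H2-T22 -0.80, H2-T23 -0.31, B2m -0.84, Tap1 -0.55, Tap2 -0.44, H2-T10 -0.31, H2-M3 -0.81, Tapbpl -0.42, Lnpep -0.21, Psmb8 -0.78, Psmb9 -0.63, Psme2 -0.81, Creb1 -0.39, Irf1 -0.56, Irf9 -0.26, Ifng -0.12, Jak1 -0.18 and Jak2 -0.40. With quantile normalization H2-D1 was at -0.02 and B2m at 0.05. Of the 9 genes compared with B2m, 6 passed, and 0 passed without any 1 library (lowest 0, highest 0), where the smallest possible p is 0.0667 or 0.1, so those runs bear on the size only; without 1 library Nlrc5 relative to B2m was 0.72 to 1.15. The cause of the other changes was not tested. No paired analysis was possible because the groups share no replicate number. TPM keeps no depth, so no counting intervals are given.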

Other observations

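A further 3 class I genes, chosen after their values were seen, also had a higher mean in ENT1KO. H2-Q5 stood at 249.8 to 303 TPM in ENT1KO and 67.4 to 155 TPM in WT. H2-T-ps stood at 14.9 to 21.3 against 7.31 to 16.4 TPM, which overlap, and H2-K2 at 15.7 to 19.9 against 8.04 to 11.9 TPM. H2-T-ps shares 12.9% of the 50-base words of H2-T23. The part of shared reads in these levels was not tested.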
